A study of Mus musculus with 28 samples.

Results

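The CXCR3 and CXCR6 chemokine axes were followed through 6 genes, the ligands Cxcl9, Cxcl10 and Cxcl11 with their receptor Cxcr3, and the ligand Cxcl16 with its receptor Cxcr6. They were taken by symbol from the 55341 gene names of the deposited count matrices, and all 6 were found and passed the filter on low counts. Bulk RNAseq measured 28 whole subcutaneous tumors grown from AB1-HA, a mouse mesothelioma cell line, on the right flank of BALB/c.AusBP mice, and the question was how 5-FU, cisplatin and immune checkpoint blockade (ICB) change the tumor alone and combined. The mice were females of 8 to 10 weeks, each library was made from a whole tumor, and no host transgene or deletion was named. Treatment began at a tumor size of 20 to 25 mm2. The PBS group (4 tumors) had vehicle. The ICB group (5 tumors) had 100 µg of anti-CTLA-4 and 100 µg of anti-PD-L1, and then 2 additional doses of anti-PD-L1 given 2 days apart. The 5-FU group (5 tumors) had 75 mg/kg of this antimetabolite intravenously, and the cisplatin group (4 tumors) had 6 mg/kg of this platinum compound intraperitoneally. The 5-FU+ICB group (5 tumors) and the cisplatin+ICB group (5 tumors) had both. All groups share the same tumor line, which is a single line, and were harvested on day 7.

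CXCL9, CXCL10 and CXCL11 are secreted chemokines that cells make in response to interferon-gamma, and they attract activated T cells and NK cells that carry CXCR3. CXCL16 differs in that it is made as a transmembrane protein, chiefly by macrophages and dendritic cells, and can be shed by the proteases ADAM10 and ADAM17. Its receptor CXCR6 is found on effector and tissue-resident T cells and on NKT cells. In tumors both axes are known for the positioning of T cells near myeloid cells.

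Cxcl9, Cxcl10 and Cxcl11 lie next to each other within 44.1 kb of chromosome 5 (GRCm38, minus strand), at chr5:92321347-92328079, chr5:92346638-92348889 and chr5:92359544-92365485. Cxcr3 is at chrX:101731535-101734269 (minus strand), Cxcl16 at chr11:70453983-70459984 (minus strand) and Cxcr6 at chr9:123806475-123811760 (plus strand). Each was measured over its exons. The annotation (GENCODE M21) lists Cxcl11 as a polymorphic pseudogene, a gene that is intact in some strains and not in the reference strain. Cxcl10 shares 133 exonic bases with Art3 on the opposite strand, Cxcl16 shares 552 with Zmynd15 and Cxcl11 shares 1582 with the pseudogene Gm2673. Strandedness of the libraries was not given in the sources used here, so reads from these stretches cannot be told apart. Gm2673 was listed at 0 in all 28 tumors. The reads were counted by kallisto. Identical stretches of at least its default match length were shared with transcripts of 171 other genes for Cxcl9 and 1269 for Cxcl11. For Cxcl10 and Cxcl16 the number was 1 each, and for Cxcr3 and Cxcr6 it was 0.

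The promoters are shown because these genes moved together between tumors. RefSeq (GRCm38.p6) gave the 250 bases before the RefSeq start of 4 members, and capitals mark matches, on either strand, to an ISRE core (GAAA, any 2 bases and GAAA again), a GAS element (TTCNNNGAA), the NF-kappaB consensus or a RUNX motif (TGTGGT).
Cxcl9, chr5:92328080-92328329, minus strand: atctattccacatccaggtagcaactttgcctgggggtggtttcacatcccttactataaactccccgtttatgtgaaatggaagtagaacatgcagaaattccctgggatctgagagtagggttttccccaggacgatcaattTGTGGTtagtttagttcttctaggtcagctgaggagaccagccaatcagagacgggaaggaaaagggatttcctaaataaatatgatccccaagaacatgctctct
Cxcl10, chr5:92348890-92349139, minus strand: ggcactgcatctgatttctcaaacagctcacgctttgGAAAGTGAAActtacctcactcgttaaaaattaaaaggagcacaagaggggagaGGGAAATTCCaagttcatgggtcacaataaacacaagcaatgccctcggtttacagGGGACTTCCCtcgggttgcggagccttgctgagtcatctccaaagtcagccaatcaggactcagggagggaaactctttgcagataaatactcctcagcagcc
Cxcr3, chrX:101734148-101734397, minus strand: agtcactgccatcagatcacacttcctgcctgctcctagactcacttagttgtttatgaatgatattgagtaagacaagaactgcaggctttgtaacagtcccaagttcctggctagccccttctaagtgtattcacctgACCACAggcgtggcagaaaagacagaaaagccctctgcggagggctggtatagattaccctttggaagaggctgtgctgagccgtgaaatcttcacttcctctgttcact
Cxcr6, chr9:123806227-123806476, plus strand: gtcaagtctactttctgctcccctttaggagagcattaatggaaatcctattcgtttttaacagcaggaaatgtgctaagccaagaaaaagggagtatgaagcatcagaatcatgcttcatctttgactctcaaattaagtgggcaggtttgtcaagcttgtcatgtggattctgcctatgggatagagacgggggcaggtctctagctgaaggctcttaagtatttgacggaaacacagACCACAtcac
The Cxcl10 window held 1 ISRE core (GAAAGTGAAA, 213 to 204 bases before the start) and 2 NF-kappaB matches (159 to 150 and 103 to 94 bases before it). The windows of Cxcl9, Cxcr3 and Cxcr6 each held 1 RUNX match, and no window held the letters of a GAS element. The RefSeq starts of Cxcr3 and Cxcr6 lie inside the genes as GENCODE has them, so the end of both windows overlaps the gene, and the RUNX match of Cxcr3 lies in that overlap while that of Cxcr6 lies before the gene. No match overlapped another. Among 32851 promoter windows of the same length, 2.98% held an ISRE core, 7.02% a GAS element, 3.9% an NF-kappaB match and 14% a RUNX match. A match of letters is a description and not a site.

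Total counts ranged from 23541733 to 33950805 per tumor. Levels are given as CPM, which are counts scaled to a common library size by TMM over all 28 tumors, and in the order of the replicate numbers. The lowest deposited count of any member was 29 (Cxcr3 in cisplatin+ICB replicate 1), where counting error alone gives an exact 95% Poisson interval of 1.03 to 2.21 CPM around 1.54 CPM. Groups were compared by the quasi-likelihood test of edgeR, with p-values adjusted by Benjamini-Hochberg over all tested genes, and a gene was called at an adjusted p-value under 0.05 with an absolute log2 fold change over 0.5. Nothing in the labels gave a library batch. Some tumors stood apart. In 5-FU+ICB replicate 5 the summed B cell markers reached 770.0 CPM, and 5-FU+ICB replicate 2 had the lowest summed T cell and macrophage markers of its group (55.6 and 1460.5 CPM). In cisplatin+ICB replicate 1 mesothelial markers reached 655 CPM, where all other tumors were at 358 CPM or less. The mesothelial markers Msln, Wt1, Krt19 and Lrrn4 were detected in every group, and Upk3b was at 0 in every tumor of 3 groups.

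In tumors treated with ICB all 6 members were higher than in PBS tumors, with the largest log2 fold change for Cxcl9 and the smallest standard errors for Cxcl10 and Cxcl11. This comparison was fitted together with the 5-FU groups. Fitted with the cisplatin groups instead, the same tumors gave the smallest standard error to Cxcl16 (0.35). The standard errors of Cxcl10 and Cxcl11 were then 0.50 and 0.48, and the edgeR adjusted p of Cxcr3 was 0.00881. Cxcl9, an interferon-gamma-induced ligand, was at 48.7, 98.3, 59.0 and 52.3 CPM in the PBS tumors and at 1189, 1457, 914, 783 and 1413 CPM in the ICB tumors. The lowest ICB tumor was far above the highest PBS tumor, and the fitted log2 fold change was 4.17 ± 0.61 (SE) with an edgeR adjusted p of 2.48e-04, or 18.0-fold. Cxcl10 had 48.4, 35.5, 45.2 and 56.5 CPM under PBS and 244, 319, 260.1, 247 and 317 CPM under ICB. The ICB tumors lay close together, with no overlap, and the log2 fold change was 2.61 ± 0.27 (SE) (edgeR adjusted p = 1.72e-05). Cxcl11, the ligand with the highest affinity for CXCR3, was the scarcest of the 3, with 9.12, 8.34, 6.69 and 9.07 CPM under PBS and 62.1, 95.02, 60.0, 58.7 and 80.2 CPM under ICB. Its groups did not overlap either, and its log2 fold change was 3.12 ± 0.35 (SE) (edgeR adjusted p = 3.32e-05).

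The receptors were scarcer and varied more. Cxcr3 was measured at 3.16, 3.42, 1.73 and 3.32 CPM in the PBS tumors and at 9.74, 12.7, 34.1, 5.27 and 17.5 CPM in the ICB tumors. ICB replicate 3 was highest and replicate 4 lay just above the PBS range, and the log2 fold change was 2.45 ± 0.82 (SE) (edgeR adjusted p = 0.0237). The call on Cxcr3 was lost without PBS replicate 1, PBS replicate 3 or ICB replicate 3, where the adjusted p by edgeR was 0.0531, 0.0611 and 0.0664. It was also lost when replicate numbers entered the fit as a block (1.85 on the log2 scale, edgeR adjusted p = 0.0623). Cxcl16 had 96.1, 148, 89.4 and 97.6 CPM under PBS and 369.6, 603, 440.3, 226 and 515 CPM under ICB, without overlap and with a log2 fold change of 2.01 ± 0.49 (SE) (edgeR adjusted p = 0.00415). Cxcr6 had 6.25, 11.1, 3.14 and 4.42 CPM under PBS and 50.5, 53.2, 144, 28.7 and 104 CPM under ICB. The same ICB tumor, replicate 3, was highest for both receptors and replicate 4 was lowest, and the log2 fold change of Cxcr6 was 3.59 ± 0.92 (SE) (edgeR adjusted p = 0.00562). Against these 6 of 6 members called higher, 19.0% of the 17916 tested genes were called higher, and 15.8% were higher without overlap. The median log2 fold change was 2.87 over the members and -0.03 over all tested genes. In a whole tumor, more cells of a type and more RNA per cell cannot be told apart. T cell markers moved with these results: 7 of 7 were called higher, and their sum ranged from 27.7 to 35.6 CPM under PBS and from 182 to 724 CPM under ICB. Macrophage markers did as well, with 6 of 6 called higher and sums of 1349 to 2059 CPM against 2802 to 7724 CPM. Summed neutrophil markers were at 7.63 to 15.9 CPM under PBS and 55.4 to 152 CPM under ICB (2 of 4 called higher), and NK cell markers at 14.9 to 40.5 and 58.7 to 114 CPM (1 of 3 tested called higher), and neither list overlapped between the groups. Endothelial markers summed to 60.6 to 119 CPM under PBS and 121 to 242 CPM under ICB, also without overlap (1 of 3 called higher). Summed dendritic cell markers were at 20.7 to 25.9 CPM under PBS and 106 to 427 CPM under ICB, with 3 of 5 called higher. Summed mesothelial markers were lower without overlap, at 272 to 358 CPM under PBS and 54.6 to 217 CPM under ICB, although of 3 tested 1 was called higher and 0 lower. Summed skeletal muscle markers ranged from 0.731 CPM in ICB replicate 4 to 2909.7 CPM in replicate 3, the ICB tumors with the lowest and highest receptor levels, with 0 of 4 called. No T cell or macrophage marker was at 0 in every tumor of a group. Their part in the result was not tested. For Cxcl16, the overlapping gene Zmynd15 was also called higher, with a log2 fold change of 2.21 (edgeR adjusted p = 0.00167).

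**Figure D1:**
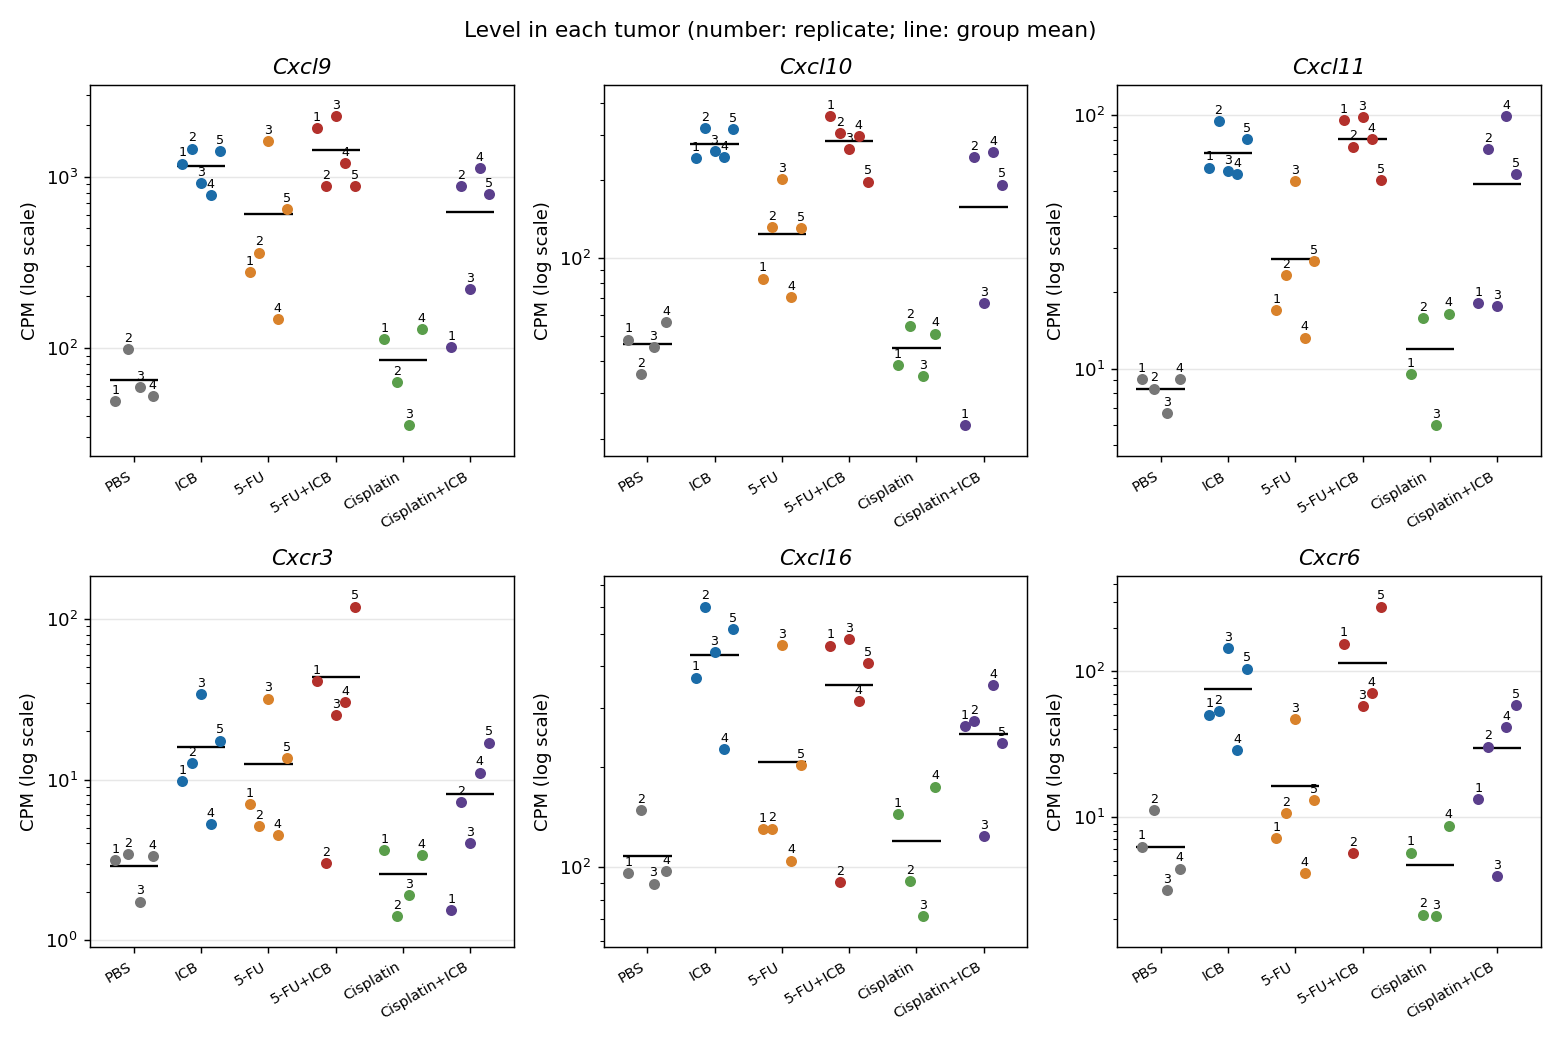
CPM of each member on a log axis in the 28 tumors, by treatment group, where a point is 1 tumor, the number beside it is its replicate and the line is the group mean. The ICB tumors are above the PBS tumors for all 6 genes, 5-FU+ICB replicate 2 falls to the PBS range for Cxcr3, Cxcl16 and Cxcr6 only, and cisplatin+ICB replicates 1 and 3 are lowest of their group for the 3 ligands of Cxcr3.

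With 5-FU alone the 3 ligands of Cxcr3 were called higher than in PBS tumors. Cxcl9 was at 276, 359, 1609, 147 and 644 CPM, all above the PBS tumors, with a log2 fold change of 3.24 ± 0.58 (SE) (edgeR adjusted p = 0.00296). Replicate 3 was the highest and exceeded every tumor treated with ICB alone, while replicate 4 was nearest to PBS. Without replicate 3 the log2 fold change of Cxcl9 was 2.47 and it was still called. Cxcl10 was at 83.4, 132, 202, 70.5 and 131 CPM and Cxcl11 at 17.1, 23.4, 55.0, 13.3 and 26.6 CPM, again without overlap with PBS, and replicate 3 was highest and replicate 4 lowest for both. Their log2 fold changes were 1.43 ± 0.26 (SE) and 1.71 ± 0.33 (SE) (edgeR adjusted p = 0.00296 and 0.00428). With both matrices joined the call on Cxcl10 was lost (edgeR adjusted p = 0.0562). In all, 3 of 6 members were called higher, where 9.98% of all tested genes were.

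Cxcr3 had 7.04, 5.14, 31.9, 4.49 and 13.6 CPM in the 5-FU tumors. Its values did not overlap with PBS, as was so for 4 of 6 members and for 9.27% of all tested genes, but at a log2 fold change of 2.10 ± 0.81 (SE) it was not called by edgeR (adjusted p = 0.0624). DESeq2 called it, with an adjusted p of 0.0154. EdgeR called it as well when only the compared groups were fitted (adjusted p = 0.0339). Without 5-FU replicate 3 its log2 fold change was 1.38, and over the fits that left out 1 tumor the edgeR adjusted p ranged from 0.0512 to 0.197. Cxcl16 had 129.9, 130.5, 462, 105 and 202 CPM and Cxcr6 7.15, 10.6, 46.9, 4.09 and 13.0 CPM. In both, replicate 3 was far above the other tumors, replicate 5 was above every PBS tumor and the other 3 were in the PBS range, and neither was called (edgeR adjusted p = 0.142 and 0.225). The 95% intervals of their log2 fold changes were -0.05 to 1.93 and -0.39 to 3.14. Without replicate 3 the log2 fold change of Cxcr6 was 0.46. T cell markers summed to 40.4 to 465 CPM, lowest in replicate 4 and highest in replicate 3, and 5 of 7 were called higher, as were 2 of 6 macrophage markers and 1 of 5 dendritic cell markers. Summed dendritic cell markers did not overlap with PBS, at 32.2 to 277 CPM against 20.7 to 25.9 CPM. Fibroblast markers were called higher in 4 of 4 cases, with sums of 4995 to 9042 CPM against 1441 to 4919.6 CPM under PBS. Summed endothelial markers did not overlap either, at 121 to 278 CPM against 60.6 to 119 CPM (1 of 3 called higher). Summed mesothelial markers were lower without overlap, at 46.6 to 178 CPM (1 of 3 tested called higher, 0 lower), and summed skeletal muscle markers ranged from 6.11 to 1212 CPM against 88.0 to 153 CPM (0 of 4 called). Their part in the result was not tested. Art3, which shares exonic bases with Cxcl10, was called higher too, at 1.82 on the log2 scale (edgeR adjusted p = 0.0306).

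With cisplatin alone no member was called. Cxcl9 had 113, 62.9, 35.2 and 129 CPM, Cxcl10 38.4, 54.7, 34.98 and 51.0 CPM and Cxcl11 9.53, 15.8, 5.97 and 16.5 CPM. Every one of these groups overlapped with PBS. Cxcr3 was at 3.62, 1.41, 1.91 and 3.38 CPM, Cxcl16 at 144, 90.7, 71.4 and 175 CPM and Cxcr6 at 5.69, 2.13, 2.08 and 8.71 CPM, and these overlapped with PBS too. EdgeR called 0 of 6 members, DESeq2 called 0, and 0 had an unadjusted p under 0.05; of all 17819 genes tested, 0% were called and 1.78% had an unadjusted p under 0.05, and DESeq2 called 0.0114%. The 95% interval of the log2 fold change was -0.79 to 1.59 for Cxcl9, -1.07 to 0.97 for Cxcl10 and -1.88 to 1.05 for Cxcr6.

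5-FU and cisplatin were also compared with each other. All 6 members had a positive log2 fold change for 5-FU over cisplatin, and Cxcl9, Cxcl10 and Cxcr3 did not overlap, where 5.29% of tested genes were higher without overlap. By edgeR 0 of 6 were called (0.0918% of all genes were called higher), though 5 had an unadjusted p under 0.05, as did 15.5% of all genes, and DESeq2 called 3, with 2.70% of the genes it tested called higher. The difference was 2.84 ± 0.65 (SE) for Cxcl9 (edgeR adjusted p = 0.0513), 1.47 ± 0.43 (SE) for Cxcl10 and 2.26 ± 0.78 (SE) for Cxcr3 on the log2 scale. With 1 tumor left out, the edgeR adjusted p of Cxcl9 ranged from 0.0428 to 0.234, and Cxcl9 was called only without 5-FU replicate 1 or replicate 4. Without 5-FU replicate 3 the difference was 2.07 for Cxcl9 and 1.55 for Cxcr3. Summed fibroblast markers did not overlap, at 4995 to 9042 CPM under 5-FU and 2273 to 4667 CPM under cisplatin. Nor did endothelial markers (121 to 278 against 66.6 to 94.9 CPM) or mesothelial markers (46.6 to 178 against 213 to 308 CPM). T cell markers overlapped (40.4 to 465 against 15.7 to 50.1 CPM). EdgeR called 0 markers of these lists, and their part in the result was not tested.

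In the 5-FU+ICB tumors all 6 members were called higher than in PBS tumors, where 21.9% of tested genes were. Cxcl9 had 1925, 880.3, 2263, 1202 and 882 CPM, Cxcl10 356, 305, 264, 298 and 198 CPM and Cxcl11 95.3, 75.1, 98.1, 80.3 and 55.5 CPM. These 3 ligands were above PBS in every tumor. Their log2 fold changes were 4.48 ± 0.62 (SE), 2.64 ± 0.27 (SE) and 3.30 ± 0.36 (SE) (edgeR adjusted p = 1.93e-04, 2.07e-05 and 2.66e-05). Only 3 of 6 members lacked overlap, against 10.9% of all genes, and the other 3 overlapped with PBS through replicate 2.

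Cxcr3 had 41.0, 3.01, 25.3, 30.5 and 119 CPM, Cxcl16 461, 90.2, 482, 314 and 407 CPM and Cxcr6 155, 5.64, 57.5, 70.9 and 278 CPM in these tumors. Replicate 2 thus combined Cxcl9, Cxcl10 and Cxcl11 levels within the range of the ICB tumors with Cxcr3 and Cxcr6 in the PBS range. Replicate 5 had the highest Cxcr3 and Cxcr6 of all 28 tumors and the lowest Cxcl10 and Cxcl11 of its group. The log2 fold changes against PBS were 3.94 ± 0.87 (SE) for Cxcr3, 1.72 ± 0.48 (SE) for Cxcl16 and 4.19 ± 0.95 (SE) for Cxcr6 (edgeR adjusted p = 0.00254, 0.00921 and 0.00279). Summed T cell markers were 55.6 CPM in replicate 2 and 1567 CPM in replicate 5, and B cell markers 13.4 and 770.0 CPM. Against PBS, 7 of 7 T cell, 4 of 6 macrophage, 3 of 5 dendritic cell, 3 of 4 B cell, 3 of 3 endothelial and 2 of 4 fibroblast markers were called higher. Skeletal muscle markers summed to 1.18 CPM in replicate 2 and 3922 CPM in replicate 5, the lowest and highest of the group, with 0 of 4 called. Summed mesothelial markers were below PBS in every tumor, at 37.3 to 168 CPM, highest in replicate 2, with 2 of 3 tested called higher and 1 lower. Their part in the result was not tested. All 6 calls held in each fit that left out 1 tumor, and without replicate 5 the log2 fold change was 3.12 for Cxcr3 and 3.53 for Cxcr6.

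**Figure D2:**
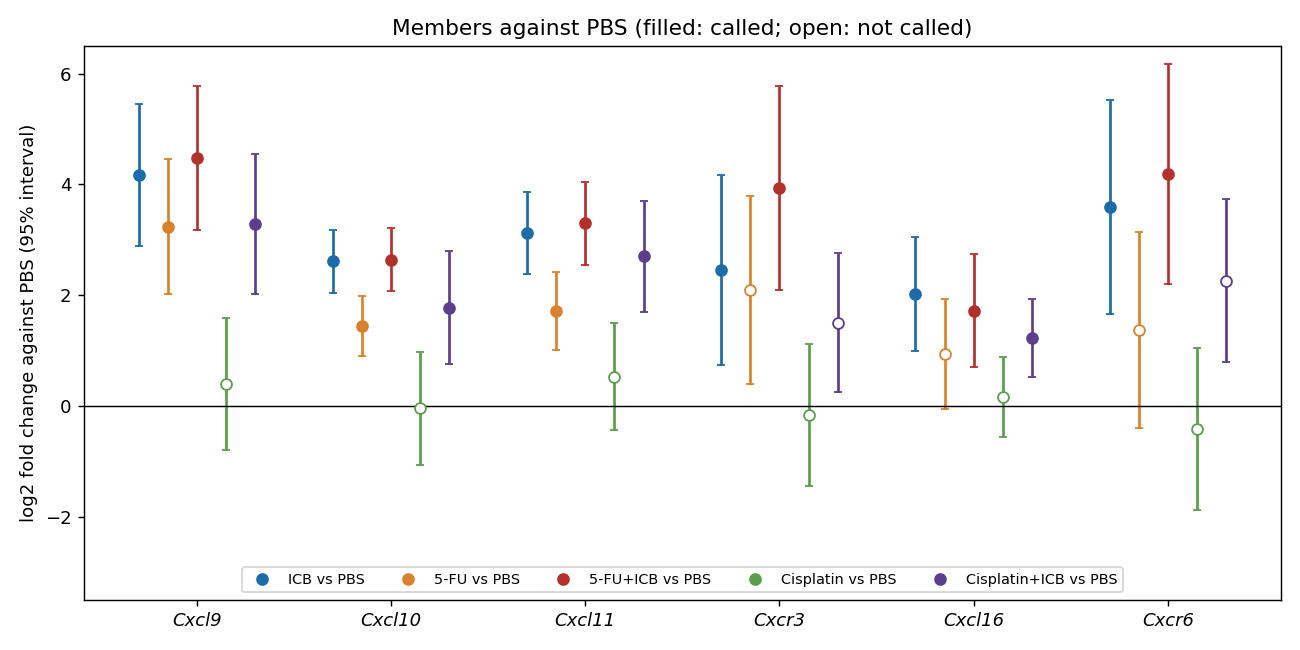
Log2 fold change of each member against PBS in 5 treatment groups, from edgeR, with 95% intervals; filled points were called and open points were not. ICB and 5-FU+ICB points are filled for all 6 genes, 5-FU for Cxcl9, Cxcl10 and Cxcl11, cisplatin+ICB for 4 genes and cisplatin for none.

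Adding ICB to 5-FU gave positive log2 fold changes for all 6 members, none of which edgeR called against the 5-FU tumors (0.0112% of all genes were called higher). At an unadjusted p under 0.05 there were 5 members and 16.6% of all genes. DESeq2 called 3, namely Cxcl10, Cxcl11 and Cxcr6, and 2.46% of the genes it tested were called higher. The differences were 1.20 ± 0.24 (SE) for Cxcl10, 1.59 ± 0.30 (SE) for Cxcl11 and 2.81 ± 0.81 (SE) for Cxcr6 on the log2 scale (edgeR adjusted p = 0.0807, 0.0807 and 0.148). Of the 6, only Cxcl11 did not overlap between these groups, where 0.910% of all genes were higher without overlap. Leaving out 5-FU replicate 3 or 5-FU+ICB replicate 2 gave 4 calls each, and over the fits with 1 tumor left out the edgeR adjusted p of Cxcr6 ranged from 0.0200 to 0.423, with a difference of 3.73 without 5-FU replicate 3. Against ICB alone, 5-FU+ICB gave 0 calls by edgeR, 0 by DESeq2 and 0 unadjusted p under 0.05 (0.229%, 1.68% and 10.9% of all genes, respectively). The 95% interval of that difference was -0.46 to 0.52 for Cxcl10 and -0.02 to 2.99 for Cxcr3. For Cxcr3 the difference was 1.49 with all tumors and 0.67 without 5-FU+ICB replicate 5.

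The interaction, the effect of 5-FU with ICB minus that without it, was negative for all 6 members. It was -2.93 ± 0.73 (SE) for Cxcl9, -1.41 ± 0.34 (SE) for Cxcl10 and -1.54 ± 0.44 (SE) for Cxcl11 on the log2 scale. These 3 had an unadjusted p under 0.05, as did 23.9% of all genes, but edgeR called 0 (adjusted p = 0.0665, 0.0665 and 0.0691) and 0.0893% of all genes. DESeq2 called the same 3 ligands, with 4.19% of the genes it tested called lower. In edgeR, Cxcl9 and Cxcl10 were called without PBS replicate 3, PBS replicate 4, 5-FU replicate 4 or 5-FU+ICB replicate 4. Over all fits that left out 1 tumor the adjusted p of Cxcl9 ranged from 0.0373 to 0.153, and without 5-FU replicate 3 its interaction was -2.16. For Cxcr3 and Cxcr6 the 95% intervals ran from -2.79 to 1.57 and from -3.12 to 1.56, and for both the estimate turned positive, to 0.11 and 0.14, without 5-FU replicate 3.

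The cisplatin+ICB tumors differed widely from each other in the ligands of Cxcr3. Cxcl9 had 101, 881, 220.0, 1125 and 788 CPM, Cxcl10 22.5, 247, 66.9, 257 and 193 CPM and Cxcl11 18.1, 73.4, 17.6, 99.4 and 58.5 CPM. Replicates 2, 4 and 5 were within the ICB range or close to it, replicate 3 lay between PBS and ICB, and replicate 1 was below every PBS tumor for Cxcl10. Cxcr3 had 1.54, 7.24, 4.04, 11.0 and 17.0 CPM, Cxcl16 265, 274, 124, 350.1 and 236 CPM and Cxcr6 13.3, 30.4, 3.92, 41.6 and 58.4 CPM. Replicate 1 was lowest for Cxcr3 but not for Cxcl16 and Cxcr6, whose lowest tumor was replicate 3.

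Against PBS, edgeR called 4 of 6 members higher in cisplatin+ICB tumors, where 4.70% of tested genes were. They were Cxcl9 (3.28 ± 0.60 (SE) on the log2 scale, adjusted p = 0.0119), Cxcl10 (1.77 ± 0.48 (SE), adjusted p = 0.0382), Cxcl11 (2.70 ± 0.47 (SE), adjusted p = 0.0116) and Cxcl16 (1.23 ± 0.34 (SE), adjusted p = 0.0399). Cxcl9 and Cxcl11 did not overlap with PBS, against 3.43% of all genes. Cxcr3 (1.504 ± 0.60 (SE)) and Cxcr6 (2.26 ± 0.70 (SE)) were not called by edgeR (adjusted p = 0.133 and 0.0605), and DESeq2 called Cxcr6. The count was sensitive to single tumors: it was 0 without PBS replicate 1, 3 or 4, 2 without cisplatin+ICB replicate 2, 4 or 5, and 6 without cisplatin+ICB replicate 1. It was also 0 when only the compared groups were fitted. Summed T cell markers ranged from 23.8 to 400.4 CPM in these tumors, lowest in replicate 1, and 6 of 7 were called higher. Of the other lists, 1 of 6 macrophage, 2 of 5 dendritic cell and 3 of 4 neutrophil markers were called higher, and skeletal muscle markers summed to 41.6 to 792 CPM, lowest in replicate 1. Their part in the result was not tested.

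Adding ICB to cisplatin gave 0 calls by edgeR, which called 0% of all genes higher. All 6 members had an unadjusted p under 0.05, as did 14.2% of all genes, and DESeq2 called 5 members higher and 3.83% of the genes it tested. The differences were 2.88 ± 0.59 (SE) for Cxcl9, 2.17 ± 0.46 (SE) for Cxcl11 and 2.67 ± 0.71 (SE) for Cxcr6 on the log2 scale (edgeR adjusted p = 0.0693, 0.0693 and 0.0987). Cxcl11 alone did not overlap, where 1.18% of all genes were higher without overlap. Without cisplatin+ICB replicate 1 or replicate 3, 5 members were called. Against ICB alone, all 6 estimates were negative in cisplatin+ICB, with a median log2 value of -0.85, all 6 overlapped and 0 were called by edgeR or DESeq2, with 2 at an unadjusted p under 0.05. Of all genes, edgeR called 0% lower, DESeq2 called 0.260% in either direction and 15.9% had an unadjusted p under 0.05. The interaction of cisplatin and ICB gave 0 calls by edgeR, 0 by DESeq2 and 0 unadjusted p under 0.05 (0%, 0.00285% and 7.14% of all genes, respectively), and its 95% interval was -2.88 to 0.32 for Cxcl9.

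Between the combinations, all 6 members had positive log2 fold changes for 5-FU+ICB over cisplatin+ICB, with 0 called by edgeR, 4 at an unadjusted p under 0.05 and 1, Cxcr3, called by DESeq2. Of all genes, edgeR called 0.103% higher, 25.7% had an unadjusted p under 0.05 and DESeq2 called 3.38% higher. The difference was 2.42 ± 0.71 (SE) for Cxcr3 (edgeR adjusted p = 0.0741) and 1.20 ± 0.56 (SE) for Cxcl9 (edgeR adjusted p = 0.183). Without 5-FU+ICB replicate 2 there were 2 calls, and without cisplatin+ICB replicate 5 there was 1. Without 5-FU+ICB replicate 5 the difference of Cxcr3 was 1.61, and its adjusted p by edgeR ranged from 0.0248 to 0.266 over the fits with 1 tumor left out.

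Ordered by group mean of log2 CPM, 5-FU+ICB or ICB stood first for every member and PBS or cisplatin last. For Cxcl9 the order was 5-FU+ICB, ICB, cisplatin+ICB, 5-FU, cisplatin and PBS, with means of 1430.4 ± 631 (SD, n = 5), 1151 ± 298 (SD, n = 5), 623 ± 442 (SD, n = 5), 607 ± 589 (SD, n = 5), 84.9 ± 43.5 (SD, n = 4) and 64.6 ± 22.9 (SD, n = 4) CPM. For Cxcr6 it was ICB, 5-FU+ICB, cisplatin+ICB, 5-FU, PBS and cisplatin, with means of 76.1 ± 46.9 (SD, n = 5), 113 ± 107 (SD, n = 5), 29.5 ± 21.8 (SD, n = 5), 16.3 ± 17.4 (SD, n = 5), 6.23 ± 3.50 (SD, n = 4) and 4.65 ± 3.19 (SD, n = 4) CPM. For Cxcl10 and Cxcr3 the order was 5-FU+ICB, ICB, 5-FU, cisplatin+ICB, PBS and cisplatin. For Cxcl11 it was that of Cxcl9, and for Cxcl16 it was ICB, 5-FU+ICB, cisplatin+ICB, 5-FU, cisplatin and PBS. By CPM means in place of log2 means, 5-FU+ICB came before ICB for Cxcr6, where replicate 5 was highest, and cisplatin+ICB before 5-FU for Cxcl10. No difference between neighbours in these orders was shown beyond the spread: of 30 two-sided exact permutation tests, 0 passed after adjustment, and the lowest adjusted p was 0.238. The lowest unadjusted exact p-values were 0.00794, for Cxcl10 in ICB against 5-FU, and 0.0159, for Cxcl9 in 5-FU against cisplatin. The smallest p this test allows is 0.00794 for 5 against 5 or 4 tumors and 0.0286 for 4 against 4, so passing needs several tests at the minimum.

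Per kilobase of the gene's principal protein-coding transcript in the annotation (the longest where several are listed), each receptor was below each of its own ligands in every group mean. In ICB tumors Cxcl9 was at 398 ± 103 CPM per kb, Cxcl10 at 254 ± 34.5, Cxcl16 at 159.6 ± 53.2, Cxcl11 at 45.1 ± 10.1, Cxcr6 at 40.1 ± 24.7 and Cxcr3 at 9.15 ± 6.42 (SD, n = 5). In PBS tumors the highest was Cxcl10 at 42.4 ± 7.95 CPM per kb, followed by Cxcl16 at 39.9 ± 10.0 and Cxcl9 at 22.4 ± 7.92 (SD, n = 4). Cxcl9 thus went from the third place under PBS to the first under ICB.

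Receptor levels were then set against Cd3e, which encodes a T cell receptor complex subunit. Cd3e itself was at 3.08, 4.64, 3.54 and 3.89 CPM in PBS tumors and 31.2, 37.2, 77.1, 18.6 and 49.8 CPM in ICB tumors. Cxcr3 relative to Cd3e, as a log2 ratio, was 0.04, -0.43, -1.001 and -0.22 in PBS tumors and -1.67, -1.55, -1.18, -1.80 and -1.51 in ICB tumors. All ICB tumors were lower than all PBS tumors, and the mean difference was -1.14 (exact permutation p = 0.00794, adjusted over 22 tests 0.175). In the same units, Cxcr6 relative to Cd3e was 1.00, 1.25, -0.17 and 0.18 in PBS tumors and 0.69, 0.51, 0.90, 0.63 and 1.07 in ICB tumors. These overlapped, and their means differed by 0.19 (exact permutation p = 0.540). Under 5-FU+ICB, Cxcr3 relative to Cd3e was -1.46, -1.15, -0.84, -0.93 and 0.19, above ICB in mean by 0.70 (exact permutation p = 0.0159, adjusted 0.175). Without 5-FU+ICB replicate 5 this difference was 0.45. Of the 22 tests, 0 passed after adjustment and 4 had an unadjusted exact p under 0.05. These included Cxcr6 in 5-FU against PBS tumors, with a mean difference of -0.83 (exact permutation p = 0.0317, adjusted 0.175). They also included Cxcr6 in 5-FU+ICB against 5-FU tumors, with a mean difference of 0.71 (exact permutation p = 0.0238, adjusted 0.175). In cisplatin+ICB replicate 1, where Cd3e was at 1.80 CPM, the Cxcr6 ratio was 2.84, the highest of the 28 tumors.

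**Figure D3:**
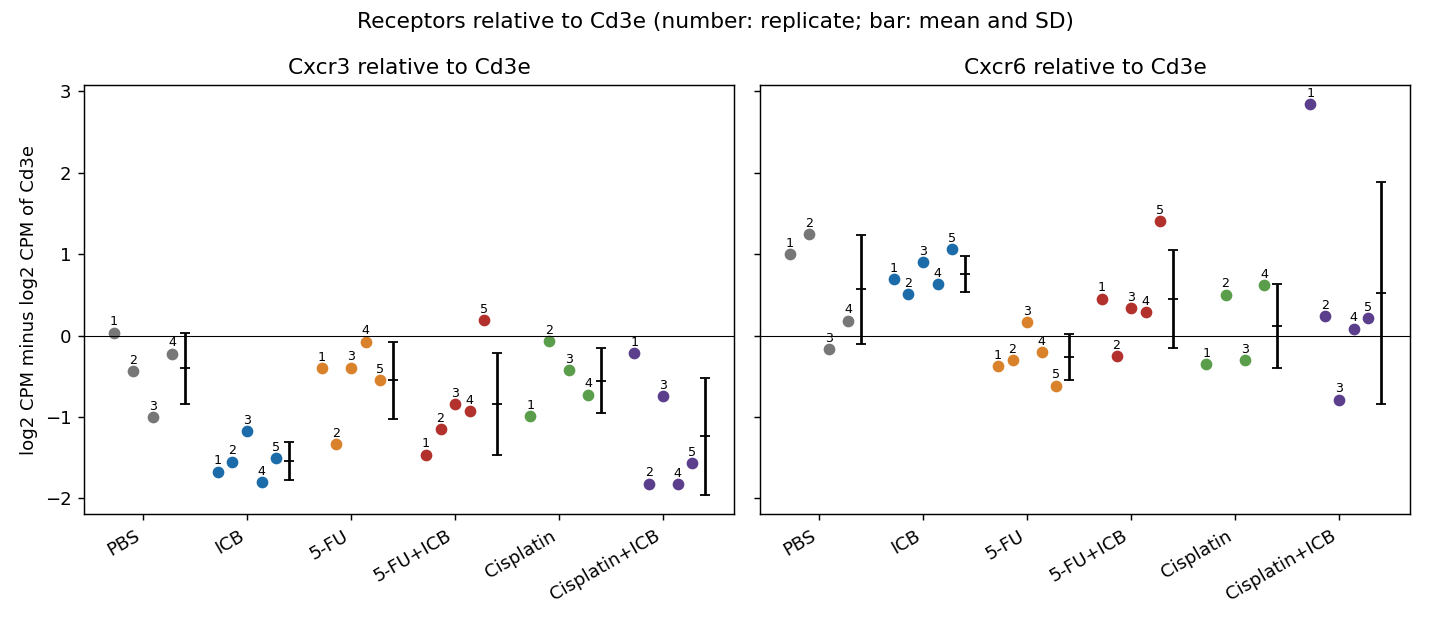
Log2 ratio of Cxcr3 (left) and Cxcr6 (right) to Cd3e in each tumor by treatment group, where a point is 1 tumor, the number its replicate and the bar the group mean with SD. The ICB tumors lie below the PBS tumors for Cxcr3 and overlap with them for Cxcr6, and cisplatin+ICB replicate 1 stands above all others for Cxcr6.

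Relative to Ptprc, the gene of the leukocyte antigen CD45, 0 of 66 exact permutation tests passed after adjustment and 19 had an unadjusted p under 0.05. For Cxcl9 the mean log2 ratio was 2.21 higher in ICB than in PBS tumors and 1.85 higher in 5-FU than in PBS tumors, without overlap in either (exact permutation p = 0.00794 in both, adjusted 0.116). For Cxcr6 the ICB tumors were higher than PBS by 1.56, also without overlap and with the same p-values. For Cxcl16 the difference was -0.01 (exact permutation p = 0.952).

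Within groups the members were positively correlated across tumors. After subtraction of each group's mean, the relations of the 15 member pairs were computed over 28 tumors, with permutations within groups and adjustment over the pairs. For Cxcr3 and Cxcr6, Pearson's r was 0.897 (adjusted permutation p = 5e-05) and Spearman's rho 0.921 (adjusted permutation p = 5e-05). For Cxcl16 and its receptor Cxcr6, Pearson's r was 0.858 (adjusted permutation p = 0.000112) and Spearman's rho 0.796 (adjusted permutation p = 0.00015). The unadjusted p of the first pair was the smallest the 100000 permutations can give. The ligands of Cxcr3 tracked each other, with r of 0.886 for Cxcl9 and Cxcl11, 0.870 for Cxcl10 and Cxcl11 and 0.804 for Cxcl9 and Cxcl10.

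The relation of the ligands to Cxcr3 was looser. For Cxcl9 and Cxcr3, Pearson's r was 0.595 (adjusted permutation p = 0.00295) and Spearman's rho 0.637 (adjusted permutation p = 0.0033), and r was 0.446 without 5-FU replicate 3 and cisplatin+ICB replicate 1, the tumors farthest from the median of Cxcl9. For Cxcl10 and Cxcr3, Pearson's r was 0.433 (adjusted permutation p = 0.0451) and Spearman's rho 0.391 (adjusted permutation p = 0.0793), and r fell to 0.251 without cisplatin+ICB replicates 1 and 4, so this relation rests on those tumors. By Pearson's r, 13 of 15 pairs passed after adjustment, and the other 2 were Cxcl10 with Cxcl16 (r = 0.273) and Cxcl10 with Cxcr6 (r = 0.364). The share of other gene pairs that would pass the same test was not computed. Without the 2 tumors farthest from the median of the first gene of each pair, 10 of 15 passed, and the pairs lost were Cxcl10 with Cxcr3, Cxcl11 with Cxcr3 and Cxcl11 with Cxcr6. The Cxcl16 and Cxcr6 pair kept r = 0.768 without 5-FU replicate 3 and 5-FU+ICB replicate 2. Ptprc also varied within groups, from 105 to 723 CPM in 5-FU+ICB tumors, and its part in these relations was not tested.

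**Figure D4:**
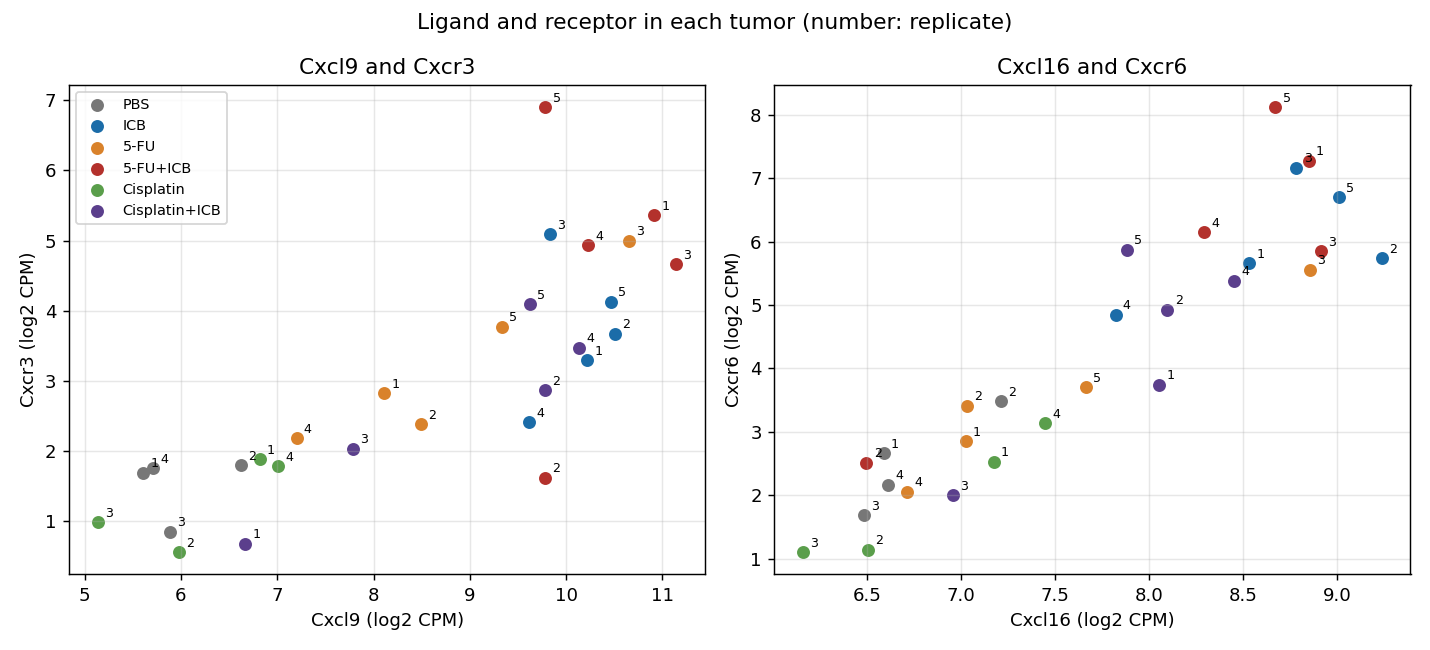
Log2 CPM of Cxcl9 against Cxcr3 (left) and of Cxcl16 against Cxcr6 (right), where a point is 1 of 28 tumors, colors are treatment groups and numbers are replicates. 5-FU+ICB replicate 2 has high Cxcl9 with low Cxcr3, replicate 5 of that group has the highest Cxcr3, and the Cxcl16 and Cxcr6 points follow each other more closely (r = 0.858 within groups).

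The genes whose log2 CPM over the 28 tumors was most like that of each member were sought among 13334 genes, as a description that includes the differences between groups. For Cxcl9 they were Gbp4 (r = 0.974), Gm43302 (r = 0.973) and Iigp1 (r = 0.972), for Cxcl10 they included Igtp (r = 0.976) and Gbp5 (r = 0.975) and for Cxcl11 Zbp1 (r = 0.974), Gm12250 (r = 0.969) and Tap1 (r = 0.966). For Cxcr3 they were Cd4 (r = 0.983), Abcg2 (r = 0.980) and Ctse (r = 0.975) and for Cxcr6 Klrc1 (r = 0.989), Cd3d (r = 0.987) and Nkg7 (r = 0.986). For Cxcl16 they were P2rx4 (r = 0.977), H2-Ea-ps (r = 0.975) and Tifa (r = 0.973). Gbp4, Gbp5, Igtp and Iigp1 encode interferon-inducible GTPases, Cd4 and Cd3d T cell surface proteins, and Nkg7 and Klrc1 proteins of cytotoxic lymphocytes. Many genes were closer to a receptor than its ligands were. In likeness to Cxcr3, Cxcr6 ranked 351, Cxcl9 1173, Cxcl16 1269, Cxcl10 1642 and Cxcl11 1846. In likeness to Cxcr6, Cxcl16 ranked 208 and Cxcr3 368. The ligands of Cxcr3 were closer to each other, with Cxcl11 at rank 18 and Cxcl10 at rank 50 for Cxcl9.

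Ifng, the gene of interferon-gamma, was at 0.203, 0.407, 0.398 and 0.365 CPM in PBS tumors and at 12.4, 16.4, 14.5, 8.32 and 14.0 CPM in ICB tumors. In the 5-FU tumors it was at 1.34, 1.51, 5.21, 0.642 and 2.47 CPM, in 5-FU+ICB at 12.2, 4.34, 8.84, 7.86 and 12.4 CPM and in cisplatin+ICB at 0.848, 12.4, 0.913, 12.3 and 8.52 CPM. Cisplatin+ICB replicates 1 and 3, the tumors with low ligands, were also the lowest for Ifng. Its log2 fold change against PBS was 5.26 for ICB, 2.69 for 5-FU, 4.74 for 5-FU+ICB and 4.34 for cisplatin+ICB (edgeR adjusted p = 2.44e-05, 0.00421, 4.71e-05 and 0.0116). Of the 9 genes of interferon-gamma signalling, 7 were called higher under ICB, 3 under 5-FU (Ifng and Jak2 among them), 8 under 5-FU+ICB, 5 under cisplatin+ICB and 0 under cisplatin, and 0 were called lower in any of them. The shares of all tested genes called higher against PBS were 19.0%, 9.98%, 21.9%, 4.70% and 0%, in that order. Irf1 rose by 1.94 under ICB on the log2 scale. For Ifngr2, a subunit of the interferon-gamma receptor, the log2 value was 0.22 under ICB (edgeR adjusted p = 0.456).

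Transcription factors of receptor-bearing T cells were called higher in 5 of 5 cases under ICB, 4 under 5-FU+ICB, 3 under 5-FU, 1 under cisplatin+ICB and 0 under cisplatin. In the same order, 19.0%, 21.9%, 9.98%, 4.70% and 0% of all tested genes were called higher against PBS. Tbx21, which encodes T-bet, an activator of Cxcr3, was higher by 3.28 under ICB, 2.02 under 5-FU, 3.97 under 5-FU+ICB and 2.49 under cisplatin+ICB on the log2 scale. Zfp683, which encodes the residency factor Hobit, rose by 3.19 under ICB and by 3.10 under 5-FU+ICB, and Runx3 by 2.33 and 2.50.

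Of the 6 genes for a further CXCR3 ligand, shedding, trimming and scavenging, 3 were called higher under ICB, 3 under 5-FU, 5 under 5-FU+ICB, 1 under cisplatin+ICB and 0 under cisplatin. In the same order, 19.0%, 9.98%, 21.9%, 4.70% and 0% of all tested genes were called higher against PBS. Adam17, a protease that sheds CXCL16, rose by 1.26 under ICB and by 0.96 under 5-FU+ICB, while for Adam10 the log2 value was 0.44 and 0.39, under the fold change threshold. Dpp4, whose product truncates the CXCR3 ligands, rose by 2.25 under ICB and by 2.87 under 5-FU+ICB. Ackr1, the gene of an atypical chemokine receptor of venules, rose under 5-FU (3.08) and 5-FU+ICB (4.06) and had a log2 value of 1.60 under ICB (edgeR adjusted p = 0.112). Between 5-FU+ICB and ICB its difference of 2.47 was not called (edgeR adjusted p = 0.173).

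Among 17 tested genes of other lymphocyte chemokine axes, 7 were called higher under ICB, 7 under 5-FU, 15 under 5-FU+ICB, 5 under cisplatin+ICB and 0 under cisplatin. The shares of all tested genes called higher against PBS were 19.0%, 9.98%, 21.9%, 4.70% and 0%, in that order. Ccl5, the gene of a chemokine that attracts T cells, was called in all but cisplatin alone and rose by 4.55 under ICB, 2.06 under 5-FU, 3.95 under 5-FU+ICB and 3.01 under cisplatin+ICB. Ccl19, a ligand of CCR7 made in lymphoid stroma, was at 8.34, 1.71, 3.00, 5.57 and 349.6 CPM in the 5-FU+ICB tumors, where replicate 5 alone held nearly all of it. That tumor also had the highest B cell markers, Cxcr3 and Cxcr6. Cxcl13, the ligand of CXCR5, had 136, 175, 788, 125 and 300.4 CPM under 5-FU, all above the 60.7, 44.5, 20.4 and 61.1 CPM under PBS, and rose by 2.71 on the log2 scale (edgeR adjusted p = 0.0329). Of the 3 tested genes that overlap a member, 1 was called higher under ICB, 1 under 5-FU, 3 under 5-FU+ICB and 0 under cisplatin+ICB or cisplatin. The same shares of all genes stand beside these counts. Zmynd15 was at 63.6, 9.71, 68.9, 53.7 and 61.5 CPM in the 5-FU+ICB tumors and, like Cxcl16, was lowest in replicate 2.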

How the data were processed

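RNA of 28 tumors was sequenced as 100-base single-end reads. Per the submitters' processing notes and the methods, the authors used bcl2fastq 2.20.0.422, kallisto 0.46.0 on GRCm38/mm10 and tximport, and deposited estimated counts per gene without normalization in a matrix for the 5-FU groups and another for the cisplatin groups, which share the PBS and ICB tumors. The annotation release was not given in the sources used here. Of the values, 23.7% were not whole and were rounded. Cxcl9, Cxcl11 and Cxcl16 had fractional counts in nearly all tumors (kallisto divides reads that fit several transcripts), and Cxcl10, Cxcr3 and Cxcr6 had whole counts in all 28.

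In R 4.3.3, edgeR 4.0.16 filtered each matrix by group (filterByExpr), scaled it by TMM and fitted all of its groups by glmQLFit, or all 6 groups joined where 5-FU and cisplatin groups were compared. The standard error of a log2 fold change was derived from the F statistic. The fit was tested on simulated counts of each matrix. Changes were placed only in the 5-FU or cisplatin group, in genes with a mean count of at least 50. The joined fit and the interactions were not simulated. Log2 CPM used a prior count of 2. DESeq2 1.42.0 was an alternative, beside its size factors, other filters, a replicate block, smaller models, joined matrices, no fold threshold and each tumor left out. Exact permutation tests were two-sided, on means of log2 CPM. Replicate numbers were checked and did not pair the tumors.

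The members and gene lists were chosen with earlier results of these data known. Genes named are the 6 members, the genes of the lists on upstream factors, regulators, processing and other chemokine axes, genes overlapping a member, and per member the 3 with the highest r over 28 tumors among genes with a mean count of at least 50; some of these genes are not reported here. Labels name each sample a separate tumor, so p-values measure the spread between tumors. Depths were 23541733 to 33950805 counts. The Poisson interval of a level covers counting error only, and the intervals of fold changes include the spread between tumors. Cells, survival and flow cytometry were not analysed here.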

Additional observations from a re-analysis of the deposited data

Results flagged for a closer look

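In 36 sets of a member and a group, a tumor stood far from the others of its group in 4, by the ratio of its gap to the group's range in CPM. A chance rate of about 1 in 20 sets assumes normally distributed values and independent sets. Neither was shown here, and 5-FU replicate 3 stood out for both Cxcl16 and Cxcr6. Cxcr3 was lowest in PBS replicate 3, at 1.73 CPM. Cxcl16 was highest in PBS replicate 2, at 148 CPM. In 5-FU replicate 3, Cxcl16 reached 462 CPM and Cxcr6 46.9 CPM. The last tumor also had the highest summed T cell markers (465 CPM), macrophage markers (6221 CPM) and B cell markers (103 CPM) of its group, and their part in these values was not tested.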

How the results depend on the processing

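Call counts held within 1.5 times under most alternatives. For cisplatin+ICB against PBS, 4 calls became 2 with no filter on low counts, 2 with the replicate block and 0 with only the compared groups, and 0 to 6 with 1 tumor left out. DESeq2 raised the count from 0 to 3 for 5-FU+ICB against 5-FU, 5 for cisplatin+ICB against cisplatin, 3 for 5-FU against cisplatin, 1 for 5-FU+ICB against cisplatin+ICB and 3 for the interaction of 5-FU and ICB. Joining both matrices gave 1 call for cisplatin+ICB against cisplatin. It ended the calls on Cxcl10 under 5-FU and on Cxcl16 under cisplatin+ICB, both against PBS. For 5-FU against cisplatin, a minimum of 10 counts in every tumor gave 1 call and only the compared groups gave 2. Leaving out 1 tumor gave 0 to 4 calls for 5-FU+ICB against 5-FU, 0 to 5 for cisplatin+ICB against cisplatin, 0 to 1 for 5-FU against cisplatin, 0 to 2 for 5-FU+ICB against cisplatin+ICB and 0 to 2 for the interaction of 5-FU and ICB. The cause was not tested. The replicate numbers do not pair the tumors: the median correlation of same-numbered tumors was -0.0186 over 66 pairs, 21 of which were over 0.1, and 5 of 28 tumors were closest to one of their own number. With the replicate block, ICB against PBS gave 5 calls, without that on Cxcr3, and the interaction of Cxcr3 with 5-FU and ICB turned from -0.61 to 0.0018. With 1 tumor left out, uncalled log2 values near 0 changed sign: against PBS under cisplatin, Cxcl10 ranged from -0.16 to 0.059, Cxcr3 from -0.38 to 0.032, Cxcl16 from -0.10 to 0.35 and Cxcr6 from -0.95 to 0.022. For 5-FU+ICB against ICB, Cxcl10 ranged from -0.058 to 0.13 and Cxcr6 from -0.068 to 0.95, and in the interaction Cxcr3 from -1.43 to 0.11 and Cxcr6 from -1.44 to 0.14. Relative to Cd3e, differences that did not pass changed sign with 1 tumor left out, with these ranges: for ICB against PBS Cxcr6 -0.051 to 0.42, for 5-FU against PBS Cxcr3 -0.34 to 0.052, for 5-FU+ICB against PBS Cxcr6 -0.37 to 0.11, for cisplatin+ICB against PBS Cxcr6 -0.63 to 0.28, for cisplatin+ICB against cisplatin Cxcr6 -0.18 to 0.73, for cisplatin+ICB against ICB Cxcr6 -0.82 to 0.084, for 5-FU against cisplatin Cxcr3 -0.14 to 0.20 and for 5-FU+ICB against cisplatin+ICB Cxcr6 -0.40 to 0.51. Relative to Ptprc the ranges were for ICB against PBS Cxcl16 -0.090 to 0.086 and Cxcr3 -0.033 to 0.42, for 5-FU against PBS Cxcr6 -0.21 to 0.33, for cisplatin against PBS Cxcl9 -0.087 to 0.25 and Cxcl11 -0.16 to 0.41, for cisplatin+ICB against PBS Cxcl10 -0.16 to 0.39, Cxcr3 -0.35 to 0.097 and Cxcl16 -0.37 to 0.074, for 5-FU+ICB against 5-FU Cxcl10 -0.13 to 0.72 and Cxcl16 -0.32 to 0.0083, for cisplatin+ICB against cisplatin Cxcl16 -0.22 to 0.22, for 5-FU+ICB against ICB Cxcr6 -0.24 to 0.47, Cxcl10 -0.37 to 0.48 and Cxcl11 -0.15 to 0.65, for cisplatin+ICB against ICB Cxcl11 -0.21 to 0.12 and Cxcl16 -0.36 to 0.083, for 5-FU against cisplatin Cxcl16 -0.19 to 0.032 and for 5-FU+ICB against cisplatin+ICB Cxcl11 -0.12 to 0.68. With Ptprc, Cd53 and Laptm5 as the reference, the sign changed for Cxcl9 in cisplatin against PBS (-0.047), Cxcl11 in cisplatin+ICB against ICB (0.038), Cxcl16 in 5-FU against cisplatin (0.013) and Cxcr6 in 5-FU+ICB against ICB (-0.019). The exact permutation tests gave 0 adjusted passes under each alternative run. The correlations gave 13 passes of 15 with a prior count of 0.5 and 10 without the 2 farthest tumors. Depth limits Cxcr3 most, and the number of tumors limits the exact tests.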
